A study of Mus musculus with 12 samples.

Results

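The genes described here code for the adaptors, scaffolds, kinases and small GTPases of focal adhesions. They were taken by name from a list of 39 genes, and all 39 were found among the 55536 genes of the count table and were tested among the 14499 genes with enough counts. RNA-seq was performed on C2C12GFP cells, a mouse myoblast line that carries GFP and fuses into myotubes, with 3 samples for each of 4 plate surfaces. The control plates were uncoated, and the others carried Collagen I, fibronectin or Geltrex™, a basement membrane extract that holds laminin and other proteins. All groups share this 1 cell line and its differentiation medium, and the day of culture at which RNA was taken is not given in the sources used here. Nothing in the labels ties the samples of a group to separate cultures, so p-values measure only the spread between these samples, which may be technical.

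Focal adhesions are the sites at which a cell grips its matrix. Integrins bind matrix proteins outside the cell, and talin and kindlin bind the integrin tails inside it. Vinculin, the actinins, the filamins, and the complex of integrin-linked kinase, PINCH and parvin tie these tails to actin filaments. Focal adhesion kinase and the Src family kinases phosphorylate scaffolds such as paxillin and p130Cas, and adaptors of the Crk and GIT families pass the signal to the small GTPases that set actin assembly and contraction. Myoblasts use these sites to spread and migrate, and in muscle fibers the same linkers anchor the contractile apparatus to the membrane.

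Total counts per sample lay between 22520404 and 27351766. Levels are given as CPM, the count of a gene scaled to the library's total, with TMM factors. They are RNA levels, also where a protein name is used for its gene, and these data hold no protein level or activity. Collagen I replicate 3 stood apart from its group, with a chi-square per degree of freedom of 44.4 and 64.6 against the other Collagen I samples, which differed from each other by 7.71. The 3 Geltrex™ samples differed by 2.18 to 4.54, above the 1 that sampling noise gives but less than the samples of any other group. Samples of the control and fibronectin groups differed by 20.8 to 31.2. Comparisons with Collagen I were therefore also fitted without Collagen I replicate 3, and those with Geltrex™ also with its samples summed into 1, and such a value is given where it ended a call described below or moved a called log2 fold change by over 1.5 times.

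The groups differed in muscle and cell cycle markers, and these values stand beside every result below. The summed level of 11 myotube markers was 9234 to 10264 CPM on control plates and 9387 to 10409.7 CPM on Collagen I, against 2961 to 3323 CPM on fibronectin and 4096 to 4557 CPM on Geltrex™, and all 11 were lower on each of these surfaces than on either of the others. The sum of 10 dividing cell markers ran the other way, from 227 to 319.7 CPM over control and Collagen I and from 712 to 924 CPM over fibronectin and Geltrex™, with all 10 genes higher. A list of 8 interferon-stimulated genes summed to 82.9 to 129 CPM on Geltrex™ and to at most 19.99 CPM elsewhere. Their part in the results was not tested, and in these bulk samples fewer cells of a type and less RNA per cell cannot be told apart. All 4 adipocyte markers, 3 of 4 endothelial markers, 3 of 4 leukocyte markers and 2 of 3 Schwann cell markers stayed under 1 CPM in every sample, among them *Adipoq*, *Cdh5*, *Ptprc* and *Sox10*. The summed levels of these lists reached at most 0.518, 3.49, 1.59 and 2.11 CPM.

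A part of the focal adhesion genes differed from control on fibronectin and Geltrex™. On Collagen I none passed the test, where 1.12% of all genes did. On fibronectin 10 of the 39 genes rose and 5 fell relative to control by edgeR's quasi-likelihood test at an adjusted p of at most 0.05, beside 17.1% and 14.7% of all 14499 genes. On Geltrex™ 9 rose and 2 fell, beside 16.4% and 16.6% of all genes. In either direction 38.5% of the 39 genes were called on fibronectin, beside 31.9% of all genes. On Geltrex™ the share was 28.2%, below the 33.0% of all genes. Both comparisons use the same control samples. The median log2 fold change of the 39 genes was 0.15 on fibronectin and 0.11 on Geltrex™, where the median of all genes was -0.02 and -0.01. A test for any difference among the 4 groups called 21 of 39 genes, 53.8% of them, which is close to the 53.3% of all genes that it called. A share near that of all genes is no result about the list, and the members that moved are described below. Where samples of 2 groups are said not to overlap, this held for 17.3% of all genes between Collagen I and control. In the other comparisons it held for 41.6% to 54.7% of all genes. For the 39 genes these shares were 15.4% and 43.6% to 61.5%. The count on fibronectin rested partly on single samples, since 6 rose and 3 fell without control replicate 1, 6 rose without fibronectin replicate 2, 2 fell without control replicate 2, and 3 fell without fibronectin replicate 3, Geltrex™ replicate 1 or Geltrex™ replicate 2. With the Geltrex™ samples summed into 1, 5 rose and 0 fell on Geltrex™, and without control replicate 1 or 2 or any 1 Geltrex™ sample at most 1 fell.

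Relative to Collagen I, 17 genes rose and 5 fell on fibronectin, beside 22.9% and 22.1% of all genes, and 14 rose and 0 fell on Geltrex™, beside 19% and 18.2%. On Geltrex™ 0 genes were lower at an unadjusted p under 0.05, and DESeq2 also called 0 lower. Without Collagen I replicate 3 these counts were 15 and 4 on fibronectin and 12 and 0 on Geltrex™, and without Collagen I replicate 1 only 3 fell on fibronectin. Geltrex™ taken as 1 summed sample left 6 higher than on Collagen I. Between Collagen I and control 0 of 39 genes passed by edgeR, beside 1.12% of all genes, although 7 had an unadjusted p under 0.05. DESeq2 called *Tln2* higher and *Actn1* lower on Collagen I. Over the 6 comparisons 28 genes were called at least once, beside 63.8% of all genes, and 11 were called in none, namely *Cdc42*, *Crkl*, *Csk*, *Ilk*, *Parvb*, *Pdlim7*, *Pxn*, *Rock1*, *Rock2*, *Src* and *Tns1*.

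**Figure D1:**
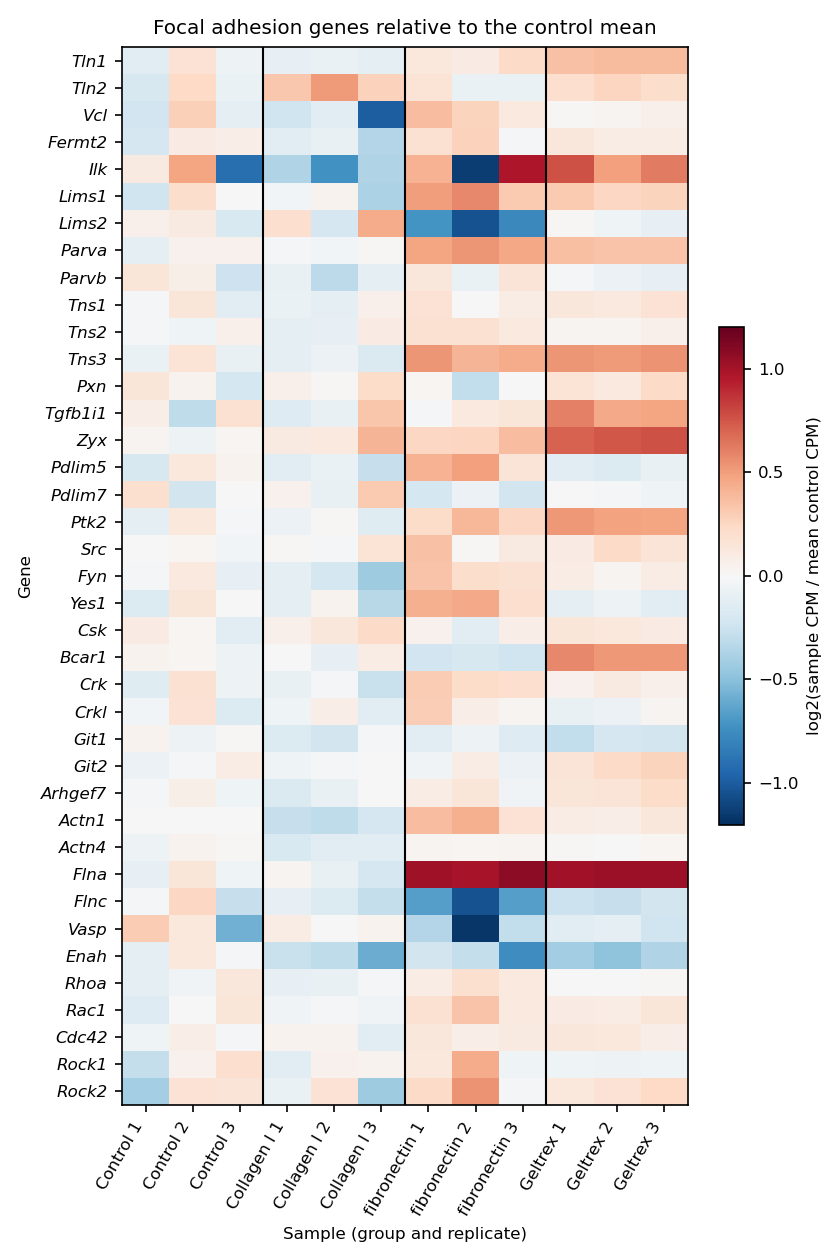
Heat map of the 39 focal adhesion genes (vertical axis) in the 12 samples (horizontal axis), with color for log2 of the sample's CPM over the mean CPM of the control samples. *Flna* is dark red in all 6 fibronectin and Geltrex™ samples, *Lims2* and *Flnc* are blue on fibronectin, and *Zyx* and *Bcar1* are redder on Geltrex™ than on the other surfaces.

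The largest change over control was that of filamin A. *Flna* codes for the broadly expressed filamin, a long dimer that crosslinks actin filaments and binds integrin tails. Its level was 870.1, 1030.3 and 897 CPM on control plates, 954, 877 and 809 CPM on Collagen I, 1891, 1854 and 1969 CPM on fibronectin, and 1871, 1901 and 1899 CPM on Geltrex™. The fibronectin and Geltrex™ samples lay close together and far above all control and Collagen I samples. Relative to control, the log2 fold change of *Flna* was 1.03 ± 0.09 (SE) on fibronectin (adjusted p = 3.85e-07) and 1.02 ± 0.09 on Geltrex™ (adjusted p = 2.94e-07). Over Collagen I it was 1.11 and 1.10, and fibronectin and Geltrex™ differed by -0.01 ± 0.09 (adjusted p = 0.945). *Flna* was the only 1 of the 39 genes that passed with a fold change of at least 2 over control, on fibronectin (beside 6.66% of all genes) and on Geltrex™ (beside 9.14%), and over Collagen I *Flna* and *Lims2* did so on fibronectin (beside 8.46%) and *Flna* on Geltrex™ (beside 9.32%).

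Filamin C, the muscle filamin of the Z-disc and of the membrane attachments of fibers, did not follow filamin A. *Flnc* stood at 1121, 1345 and 937 CPM on control plates and at 1058, 1013 and 931 CPM on Collagen I. It fell to 716, 551 and 719 CPM on fibronectin, and lay at 949.5, 939 and 973 CPM on Geltrex™. All fibronectin samples were below all other samples, while Geltrex™ fell within the range of control and Collagen I. *Flnc* fell by 0.78 on the log2 scale on fibronectin relative to control (SE 0.12, adjusted p = 0.0002) and was higher on Geltrex™ than on fibronectin by 0.53 ± 0.12 (adjusted p = 0.00661). That last call ended with the Geltrex™ samples summed into 1, where its adjusted p was 0.157, and 6 of the 11 myotube markers were also lower on fibronectin than on Geltrex™, while the other 5 did not pass.

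Within a sample the filamin pair can be compared without scaling the libraries. Per kilobase of exon, *Flna* made up 45.3 ± 3.12% (SD, n = 3) of the *Flna* and *Flnc* counts on control plates and 46.8 ± 0.559% on Collagen I. Its share was 74.3 ± 2.44% on fibronectin and 66.5 ± 0.422% on Geltrex™. The ranges of fibronectin, Geltrex™ and the other surfaces did not overlap, and an exact two-sided permutation test of 3 samples against 3 gave p = 0.1 for each of these differences, the smallest value this design allows. With the length of the longest transcript in place of all exons, the shares were 47.0%, 48.4%, 75.5% and 67.9%.

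**Figure D2:**
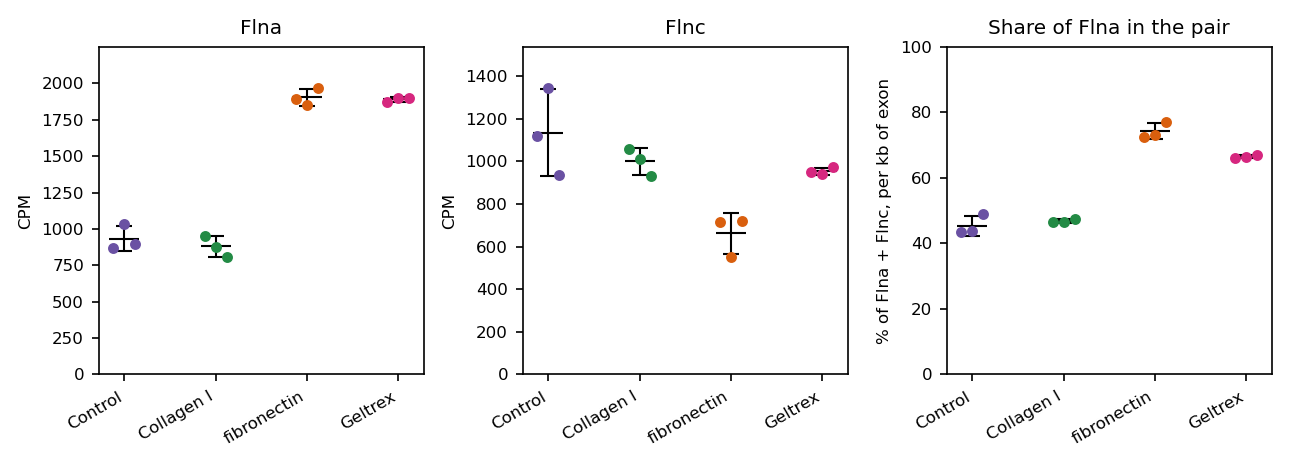
Levels of *Flna* and *Flnc* in CPM and the share of *Flna* in the pair in percent, per kilobase of exon, with a point for each of the 3 samples per surface and bars for the mean and SD. *Flna* lies between 1854 and 1969 CPM on fibronectin and Geltrex™ alike, *Flnc* is lowest on fibronectin, and the *Flna* share is highest on fibronectin at 74.3%.

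The promoters of these genes were read from RefSeq (build GRCm38.p6), which held a window for 31 of the 39 genes, 43 windows in all. Each was searched on both strands for the CArG box that binds SRF, for CATTCC, the core bound by TEAD factors, and for TGANTCA, the AP-1 element. The stretches below are shown because both filamin genes carry the same TEAD core although their levels moved apart, and because the vinculin gene carries the element of SRF, a factor known to respond to actin. Capitals mark the match, which lies upstream of the RefSeq start in each. In GENCODE M21 the *Flna* stretch falls in an intron of a longer *Flna* transcript, and the others overlap no annotated transcript.
Flna, chrX:74246641-74246710, minus strand, CATTCC: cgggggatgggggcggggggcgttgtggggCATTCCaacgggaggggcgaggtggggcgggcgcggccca
Flnc, chr6:29433122-29433191, plus strand, CATTCC: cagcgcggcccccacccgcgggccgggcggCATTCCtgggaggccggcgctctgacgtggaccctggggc
Vcl, chr14:20929148-20929217, plus strand, CArG box: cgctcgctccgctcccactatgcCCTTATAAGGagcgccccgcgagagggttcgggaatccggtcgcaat
The CArG box was in 2 of the 43 windows, those of *Vcl* and *Fermt2*, and in 1.63% of all 32851 windows. CATTCC was in 5 of the 43, those of *Flna*, *Flnc*, *Vcl* and *Actn4*, and in 14.7% of all windows. TGANTCA was in 2 of the 43, those of *Zyx* and *Actn4*, and in 7.81% of all windows. A match is a stretch of letters, no binding was measured, and a part of these elements in the level changes was not tested.

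Among the linkers of integrin tails to actin, talin 1 was highest on Geltrex™. *Tln1* codes for the main talin of most cells, the protein that switches integrins on. Its level was 475, 589.9 and 501 CPM on control plates, 487, 494 and 481 CPM on Collagen I, 569, 558 and 610.4 CPM on fibronectin, and 668, 678 and 678 CPM on Geltrex™. The Geltrex™ samples lay above all others, while fibronectin overlapped with control. *Tln1* rose on Geltrex™ by 0.37 ± 0.08 over control (adjusted p = 0.00276) and by 0.47 ± 0.08 over Collagen I (adjusted p = 0.000421), and the difference between Geltrex™ and fibronectin, 0.22 ± 0.08, did not pass (adjusted p = 0.0756). The call over control ended with the Geltrex™ samples summed (adjusted p = 0.0895). On fibronectin *Tln1* was higher than on Collagen I by 0.25 ± 0.08 (adjusted p = 0.0239), a call that ended without Collagen I replicate 1 or 3 or fibronectin replicate 3 (adjusted p = 0.0566 without Collagen I replicate 3 and at most 0.0748).

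*Tln2*, the talin of mature muscle and brain, had its highest levels on Collagen I, at 148, 168 and 143 CPM, against 103, 139 and 111 CPM on control plates. Fibronectin samples were at 132, 111 and 111 CPM and Geltrex™ samples at 135, 141 and 136 CPM. The Collagen I samples lay above all others, and *Tln2* was lower on fibronectin than there, with a log2 fold change of -0.37 ± 0.11 (adjusted p = 0.011), which ended without Collagen I replicate 2 (adjusted p = 0.0546). Over control its log2 fold change on Collagen I was 0.38 ± 0.11, with an adjusted p of 0.0991 by edgeR, and it passed by DESeq2, with no filter on low counts and without control replicate 2 (lowest adjusted p = 0.0103). Its share of talin counts per kilobase was 14.3 ± 0.907% (SD, n = 3) on Collagen I and between 9.81% and 10.7% as the mean of each of the other surfaces, with no overlap of the samples.

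Vinculin, which joins talin to actin under load, was most variable on Collagen I. *Vcl* was at 383, 411 and 228 CPM there, with replicate 3 far below the others, and at 385, 552 and 419 CPM on control plates. On fibronectin it was at 586, 545 and 489 CPM and on Geltrex™ at 456, 463 and 472 CPM, and fibronectin overlapped with control. *Vcl* was higher on fibronectin than on Collagen I by 0.66 ± 0.17 (adjusted p = 0.00561), and by 0.44 (adjusted p = 0.0131) without Collagen I replicate 3. *Ap3m1*, read from the other strand, covers 25.5% of the exon length of *Vcl*, and whether strand was used in counting is not given in the sources used here.

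The kindlin gene *Fermt2*, whose product helps talin to activate integrins, changed less. It ranged from 182 to 224 CPM on control plates, from 164 to 196 CPM on Collagen I, from 207 to 253 CPM on fibronectin and from 222 to 229 CPM on Geltrex™. Over Collagen I it was higher by 0.34 ± 0.10 on fibronectin (adjusted p = 0.0116) and by 0.29 ± 0.10 on Geltrex™ (adjusted p = 0.0312). Both calls ended without Collagen I replicate 3, at adjusted p = 0.055 and 0.12, and they also ended without fibronectin replicate 2 (adjusted p = 0.0563) and without any 1 Geltrex™ sample, respectively. With the Geltrex™ samples summed the second had an adjusted p of 0.236.

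The complex of integrin-linked kinase, PINCH and parvin couples integrins to actin and is needed for muscle attachment. Its parvin gene *Parva* rose on both fibronectin and Geltrex™. The *Parva* level was 242, 271 and 270.3 CPM on control plates, 257, 255 and 263 CPM on Collagen I, 361, 378 and 359.8 CPM on fibronectin, and 335, 331 and 330.2 CPM on Geltrex™. No sample of the latter surfaces overlapped with the former. *Parva* rose by 0.49 ± 0.07 on fibronectin (adjusted p = 7.78e-05) and by 0.35 ± 0.07 on Geltrex™ (adjusted p = 0.00116) relative to control, the latter at an adjusted p of 0.0648 with the Geltrex™ samples summed. *Parvb*, the parvin richer in heart and skeletal muscle, ranged from 39.7 to 55.1 CPM over all 12 samples and passed in no comparison. *Parva* made up 69.7 ± 3.99% (SD, n = 3) of the parvin counts per kilobase on control plates, 75.4 ± 2.16% on fibronectin and 75.3 ± 0.300% on Geltrex™.

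The PINCH genes moved in opposite directions on fibronectin. *Lims1* codes for PINCH1, and its level was 275, 375 and 325 CPM on control plates, 318, 335 and 249.5 CPM on Collagen I, 459, 485 and 403 CPM on fibronectin, and 403, 386 and 390.3 CPM on Geltrex™. All fibronectin and Geltrex™ samples were above all control and Collagen I samples. *Lims1* rose on fibronectin by 0.47 ± 0.12 over control (adjusted p = 0.00769) and by 0.58 ± 0.12 over Collagen I (adjusted p = 0.00128). On Geltrex™ its rise over Collagen I, 0.38 ± 0.12 (adjusted p = 0.0197), ended without Collagen I replicate 3 (adjusted p = 0.0867), without Geltrex™ replicate 1 or 3 and with the Geltrex™ samples summed (adjusted p = 0.186).

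*Lims2*, which codes for PINCH2, was far scarcer. It was at 9.47, 9.79 and 7.98 CPM on control plates, 10.4, 7.88 and 12.4 CPM on Collagen I, 5.53, 4.40 and 5.32 CPM on fibronectin, and 9.14, 8.77 and 8.48 CPM on Geltrex™. Every fibronectin sample lay below every other sample. *Lims2* fell on fibronectin by 0.84 on the log2 scale relative to control (SE 0.16, adjusted p = 0.00101) and by 1.0 relative to Collagen I (adjusted p = 0.000149). It was higher on Geltrex™ than on fibronectin by 0.79 ± 0.16 (adjusted p = 0.00268, and 0.0622 with the Geltrex™ samples summed). *Lims2* made up 4.33 ± 0.773% (SD, n = 3) of PINCH counts per kilobase on control plates and 1.80 ± 0.331% on fibronectin.

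The counts of *Ilk* itself cannot be read as its level. The table holds 186 counts for *Ilk* in all 12 samples together, or 0.228 CPM per kilobase, the lowest value of the 39 genes. Of its exon length, 89.7% is shared with genes on the opposite strand, 76.7% with *Taf10* and 12.9% with *Rrp8*, which hold 5553 and 7114 counts. How reads in such stretches were assigned is not given in the sources used here. *Rac1* shares 51.4% of its exon length with *Daglb* in the same way but kept 118463 counts.

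The RNA of focal adhesion kinase rose on both fibronectin and Geltrex™. *Ptk2*, which codes for this kinase, was at 97.2, 115 and 104 CPM on control plates and at 101, 107 and 95.2 CPM on Collagen I. It was at 123, 139 and 125 CPM on fibronectin and at 151, 147 and 147 CPM on Geltrex™, without overlap between these surfaces and the others. *Ptk2* rose by 0.29 ± 0.08 on fibronectin (adjusted p = 0.0127) and by 0.49 ± 0.08 on Geltrex™ (adjusted p = 0.000232) relative to control. The call on fibronectin ended without control replicate 1 or fibronectin replicate 2, at an adjusted p of at most 0.0667. Geltrex™ and fibronectin differed by 0.20 ± 0.08 (adjusted p = 0.098).

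Of the Src family kinases, *Yes1* and *Fyn* were highest on fibronectin and *Src* did not pass in any comparison. *Yes1* was at 61.1, 75.7 and 68.7 CPM on control plates, 63.0, 70.6 and 54.3 CPM on Collagen I, 92.1, 93.9 and 79.0 CPM on fibronectin, and 63.7, 65.5 and 62.7 CPM on Geltrex™. All fibronectin samples exceeded all others, and Geltrex™ fell within the control range. *Yes1* rose on fibronectin by 0.37 ± 0.10 over control (adjusted p = 0.0132), which ended without control replicate 1 or fibronectin replicate 1 or 2 (adjusted p of at most 0.0714). It rose by 0.50 ± 0.10 over Collagen I (adjusted p = 0.00131), and it was lower on Geltrex™ than on fibronectin with a log2 fold change of -0.47 ± 0.10 (adjusted p = 0.00489, and 0.165 with the Geltrex™ samples summed).

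*Fyn* was at 179.5, 197 and 169 CPM on control plates, 168, 157 and 136 CPM on Collagen I, 231, 210.0 and 206 CPM on fibronectin, and 193, 186 and 193 CPM on Geltrex™. The fibronectin samples were the highest and the Collagen I samples the lowest, with no overlap of Collagen I with the control samples. Over Collagen I *Fyn* rose by 0.49 ± 0.09 on fibronectin (adjusted p = 0.000436) and by 0.31 ± 0.09 on Geltrex™ (adjusted p = 0.0119, and 0.16 with the Geltrex™ samples summed). Its rise on fibronectin over control, 0.25 ± 0.09 (adjusted p = 0.0436), ended under 9 of 18 alternatives, among them the fits without control replicate 1 or 3, fibronectin replicate 1 or 2 or any 1 Geltrex™ sample (adjusted p of at most 0.164). *Src* ranged from 34.4 to 44.8 CPM over the 12 samples. *Csk*, the kinase that holds Src family members inactive, ranged from 44.8 to 57.7 CPM and passed in no comparison.

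The RNA of p130Cas was raised on Geltrex™ and not on fibronectin. *Bcar1* codes for this scaffold, which Src family kinases phosphorylate when it is stretched. The *Bcar1* level was 65.7, 64.9 and 61.2 CPM on control plates, 63.7, 59.7 and 68.0 CPM on Collagen I, 54.5, 55.8 and 54.1 CPM on fibronectin, and 95.6, 91.6 and 91.6 CPM on Geltrex™. The Geltrex™ samples lay above all others and the fibronectin samples below all others. *Bcar1* rose by 0.54 ± 0.07 on Geltrex™ over control (adjusted p = 2.78e-05) and was higher on Geltrex™ than on fibronectin by 0.76 ± 0.07 (adjusted p = 2.05e-06), and both calls held under all alternatives. On fibronectin it fell by 0.22 relative to control (adjusted p = 0.0281) and by 0.22 relative to Collagen I (adjusted p = 0.0222). Those calls were less steady. The former ended without control replicate 1 or 2, fibronectin replicate 1 or 3 or Geltrex™ replicate 1 or 2 (adjusted p of at most 0.0947), and the latter without Collagen I replicate 1 or 3 or fibronectin replicate 1 or 3 (adjusted p of at most 0.071, the value without Collagen I replicate 3). With no filter on low counts they had adjusted p of 0.163 and 0.138.

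Of the adaptors that bind p130Cas and paxillin, *Crk* passed only between fibronectin and Collagen I, and *Crkl* in no comparison. *Crk* was at 246, 309 and 262 CPM on control plates, 256, 269 and 226 CPM on Collagen I, 335, 318 and 314 CPM on fibronectin, and 281, 292 and 283 CPM on Geltrex™. The fibronectin samples were above all others, and *Crk* was higher there than on Collagen I by 0.37 ± 0.09 (adjusted p = 0.00424), a call kept under all 18 alternatives. Its difference from control, 0.24 ± 0.09, had an adjusted p of 0.0503 by edgeR and passed under 7 of 18 alternatives, among them DESeq2 and RLE scaling. *Crkl* ranged from 68.9 to 94.7 CPM over the 12 samples. Paxillin, the scaffold most often used to mark focal adhesions, ranged from 72.7 to 104 CPM (*Pxn*), and neither gene passed in any comparison.

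*Tgfb1i1*, which codes for the paxillin relative Hic-5, did change. It was at 36.6, 28.0 and 39.3 CPM on control plates, 31.1, 32.5 and 43.6 CPM on Collagen I, 34.3, 37.6 and 38.4 CPM on fibronectin, and 52.5, 47.6 and 47.9 CPM on Geltrex™. The Geltrex™ samples exceeded all others. *Tgfb1i1* rose on Geltrex™ by 0.51 ± 0.13 over control (adjusted p = 0.00674) and by 0.47 ± 0.13 over Collagen I (adjusted p = 0.0111), the latter not without Collagen I replicate 1. Over fibronectin it was higher by 0.43 ± 0.13 (adjusted p = 0.0321), which ended without fibronectin replicate 1 or 2 or any 1 Geltrex™ sample. With the Geltrex™ samples summed the 3 calls had adjusted p of 0.0901, 0.114 and 0.288.

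Zyxin RNA was highest on Geltrex™. *Zyx* codes for a LIM protein that enters tensed adhesions and torn stress fibers. Its level was 370.0, 348 and 369 CPM on control plates, 391, 392 and 480.4 CPM on Collagen I, 431, 432 and 469 CPM on fibronectin, and 593, 609 and 617 CPM on Geltrex™. The Geltrex™ samples were the highest and the control samples the lowest, while Collagen I and fibronectin overlapped. *Zyx* rose by 0.74 ± 0.09 on Geltrex™ (adjusted p = 6.94e-06) and by 0.29 ± 0.09 on fibronectin (adjusted p = 0.016) relative to control. Geltrex™ exceeded fibronectin by 0.45 ± 0.09 (adjusted p = 0.00154, and 0.0852 with the Geltrex™ samples summed).

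The LIM and PDZ protein gene *Pdlim5* followed fibronectin instead. Its product binds alpha-actinin and protein kinases at the Z-disc and on stress fibers. *Pdlim5* was at 282, 351 and 332 CPM on control plates, 294, 304 and 266 CPM on Collagen I, 429, 451 and 358 CPM on fibronectin, and 294, 288 and 302 CPM on Geltrex™. The fibronectin samples were above all others. *Pdlim5* rose on fibronectin by 0.36 ± 0.10 over control (adjusted p = 0.0116), which ended without control replicate 1 or fibronectin replicate 2 (adjusted p of at most 0.0634), and by 0.52 ± 0.10 over Collagen I (adjusted p = 0.000687). Geltrex™ was below fibronectin with a log2 fold change of -0.49 ± 0.10 (adjusted p = 0.00266, and 0.132 with the Geltrex™ samples summed). The related *Pdlim7* ranged from 70.8 to 103 CPM over the 12 samples and passed in no comparison.

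**Figure D3:**
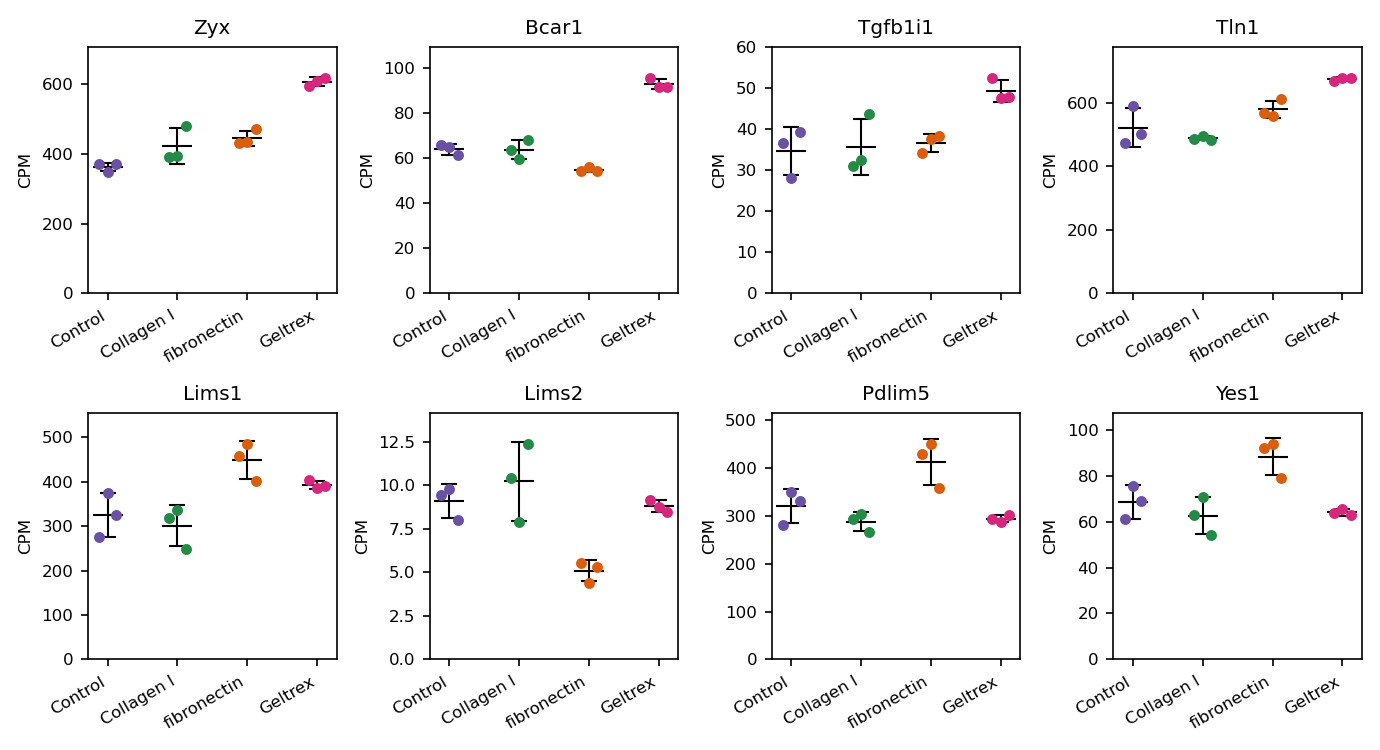
Levels in CPM of 8 focal adhesion genes on the 4 surfaces, with a point for each of 3 samples and bars for the mean and SD, on axes that start at 0. *Zyx*, *Bcar1*, *Tgfb1i1* and *Tln1* are highest on Geltrex™, *Pdlim5* and *Yes1* are highest on fibronectin, and *Lims1* is higher and *Lims2* lower on fibronectin than on control plates.

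Tensins link integrin tails to actin in the longer adhesions that lie along matrix fibrils. *Tns3* rose on both surfaces, from 197, 233 and 195 CPM on control plates and 193, 198 and 185 CPM on Collagen I to 301, 277 and 283 CPM on fibronectin and 301, 296 and 303 CPM on Geltrex™. The samples of the raised surfaces overlapped with each other and with none of the others. Relative to control *Tns3* rose by 0.46 ± 0.08 on fibronectin (adjusted p = 0.000417) and by 0.53 ± 0.08 on Geltrex™ (adjusted p = 9.72e-05). *Tns2* ranged from 272 to 332 CPM over the 12 samples and was higher on fibronectin than on Collagen I by 0.19 ± 0.07 (adjusted p = 0.043), a call that ended without Collagen I replicate 1 or 2, fibronectin replicate 1 or 2 or any 1 Geltrex™ sample (adjusted p of at most 0.152). *Tns1* ranged from 414 to 512 CPM and did not pass.

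The levels of the actin crosslinker alpha-actinin 1 did not overlap between the 4 surfaces, though not every comparison passed. *Actn1* was at 289.9, 285 and 306 CPM on Collagen I, 351, 353 and 351 CPM on control plates, 373, 371 and 387 CPM on Geltrex™, and 455, 471 and 397 CPM on fibronectin. No groups overlapped, and the order ran from Collagen I to fibronectin. Such non-overlap of 2 groups held for 17.3% to 54.7% of all genes, depending on the comparison. By edgeR the difference between Collagen I and control did not pass. *Actn1* rose by 0.33 ± 0.08 on fibronectin over control (adjusted p = 0.00414) and by 0.59 ± 0.08 over Collagen I (adjusted p = 2.24e-05). Geltrex™ was above Collagen I by 0.36 ± 0.08 (adjusted p = 0.0017, and 0.0658 with the Geltrex™ samples summed), while its difference from control, 0.10 ± 0.08, had an adjusted p of 0.338. Geltrex™ was below fibronectin with a log2 fold change of -0.23 ± 0.08 (adjusted p = 0.0485), a call that ended under 15 of 19 alternatives, among them the fits without any 1 sample other than Collagen I replicate 3 or fibronectin replicate 3 (adjusted p of at most 0.181) and with the Geltrex™ samples summed (adjusted p = 0.422). *Actn4*, the other non-muscle alpha-actinin, was at 359 to 372 CPM on Collagen I and at 391 to 419 CPM elsewhere, and its rise on fibronectin over Collagen I, 0.18 ± 0.07 (adjusted p = 0.0341), ended without Collagen I replicate 1 or 2 or any 1 sample of fibronectin or Geltrex™ (adjusted p of at most 0.106).

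Of the genes of Ena/VASP proteins, which speed the growth of actin filaments at adhesions, *Enah* fell on fibronectin and Geltrex™ and *Vasp* on fibronectin. *Enah* was at 149, 174 and 157 CPM on control plates, 133, 129 and 106 CPM on Collagen I, 137, 131 and 95.5 CPM on fibronectin, and 119.9, 115 and 125 CPM on Geltrex™. Every coated sample was below every control sample. *Enah* fell by 0.40 on the log2 scale on fibronectin (SE 0.12, adjusted p = 0.0196) and by 0.42 on Geltrex™ (SE 0.12, adjusted p = 0.0146), and its log2 fold change on Collagen I was -0.38 ± 0.12 (adjusted p = 0.139). Both calls ended without control replicate 2, the first also without fibronectin replicate 3 (adjusted p of at most 0.0828) and the second also without Geltrex™ replicate 1 or 2 (adjusted p of at most 0.0701) and with the Geltrex™ samples summed (adjusted p = 0.207).

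*Vasp* was at 90.9, 80.3 and 49.5 CPM on control plates, 78.2, 74.0 and 75.6 CPM on Collagen I, 57.8, 32.7 and 59.9 CPM on fibronectin, and 67.3, 67.6 and 62.3 CPM on Geltrex™. Control replicate 3 was low, so that fibronectin overlapped with control but not with Collagen I. *Vasp* fell on fibronectin by 0.55 relative to control (SE 0.20, adjusted p = 0.047) and by 0.60 relative to Collagen I (SE 0.20, adjusted p = 0.0247). The first call ended without control replicate 1 or 2, Collagen I replicate 1 or 2, fibronectin replicate 2 or any 1 Geltrex™ sample (adjusted p of at most 0.225), the second without Collagen I replicate 1 or fibronectin replicate 2 (adjusted p of at most 0.112), and neither passed by DESeq2.

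**Figure D4:**
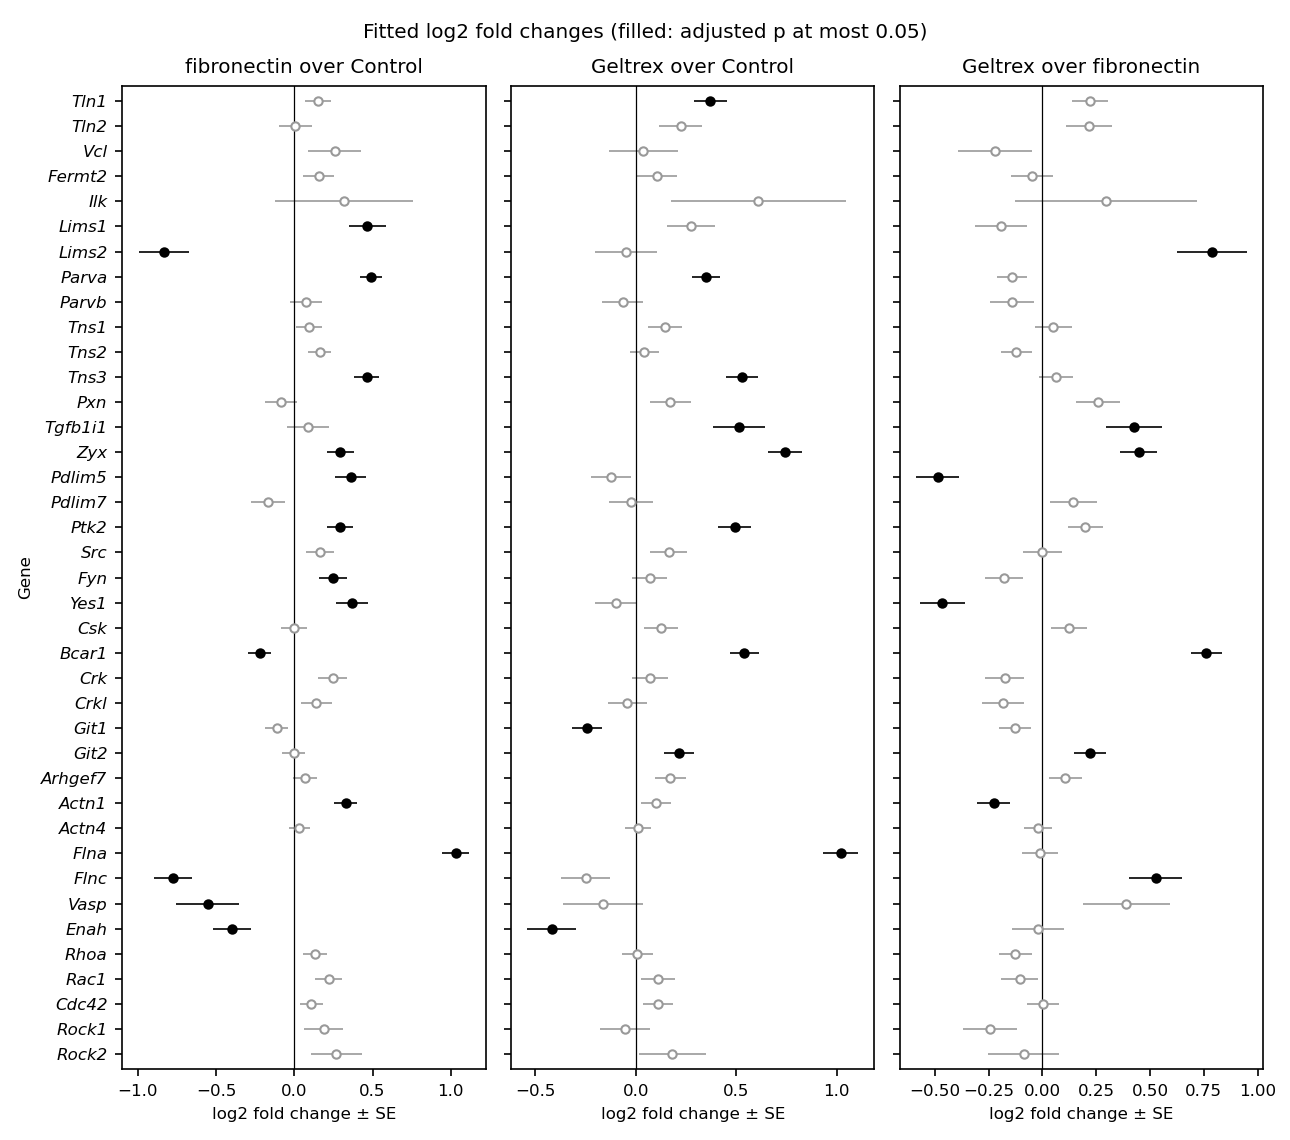
Log2 fold changes with SE (horizontal axes) of the 39 focal adhesion genes (vertical axis) for fibronectin over control, Geltrex™ over control and Geltrex™ over fibronectin, filled where the adjusted p is at most 0.05. *Flna* stands near 1 in both comparisons with control and at -0.01 between the coatings, and *Bcar1* stands at -0.22 on fibronectin, 0.54 on Geltrex™ and 0.76 between them.

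GIT proteins and beta-PIX form the scaffold that brings Rac and Cdc42 activators to adhesions. *Git1* was at 110.1, 102 and 108 CPM on control plates and at 86.7, 92.6 and 91.4 CPM on Geltrex™, and *Git2* was at 62.3, 64.7 and 69.9 CPM and at 73.0, 76.7 and 79.0 CPM. On Collagen I *Git1* was at 95.5, 91.6 and 105.7 CPM, overlapping with both control and Geltrex™. On fibronectin it was at 97.9, 102.5 and 95.8 CPM, overlapping with control and not with Geltrex™. The control and Geltrex™ samples did not overlap for either gene, as held for 50.4% of all genes and 46.2% of the 39 genes. From control to Geltrex™ the genes moved in opposite directions. *Git1* fell by 0.24 (SE 0.07, adjusted p = 0.021) and *Git2* rose by 0.22 ± 0.07 (adjusted p = 0.0359) on the log2 scale. These are small changes, and the calls ended under 7 and 6 of 19 alternatives. The *Git1* call ended without control replicate 1 or 3 or any 1 Geltrex™ sample (adjusted p of at most 0.117), and the *Git2* call without control replicate 1 or 2 or Geltrex™ replicate 2 or 3 (adjusted p of at most 0.13). With the Geltrex™ samples summed they had adjusted p of 0.269 and 0.267.

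*Git2* was also higher on Geltrex™ than on Collagen I by 0.24 ± 0.07 (adjusted p = 0.0216), which ended without Collagen I replicate 1 or Geltrex™ replicate 2 or 3 (adjusted p of at most 0.0865) and with the Geltrex™ samples summed (adjusted p = 0.199). Over fibronectin its difference of 0.22 ± 0.07 (adjusted p = 0.0485) ended under 12 of 19 alternatives, among them the fits without control replicate 2, Collagen I replicate 1 or 2, fibronectin replicate 1 or 3 or any 1 Geltrex™ sample (adjusted p of at most 0.167) and with the Geltrex™ samples summed (adjusted p = 0.406). *Arhgef7*, the gene of beta-PIX, was at 53.1, 56.6 and 60.1 CPM on Collagen I and at 66.5, 66.7 and 69.8 CPM on Geltrex™. Those groups did not overlap, and it rose by 0.26 ± 0.08 (adjusted p = 0.0168), a call that ended without Collagen I replicate 1 or Geltrex™ replicate 3 (adjusted p of at most 0.0769) and with the Geltrex™ samples summed (adjusted p = 0.18).

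Of the small GTPases and their kinases, *Rhoa* and *Rac1* passed only between fibronectin and Collagen I. *Rhoa*, which drives contraction, was at 584, 611 and 689 CPM on control plates, 585, 591 and 621 CPM on Collagen I, 667, 717 and 681 CPM on fibronectin, and 629, 632 and 633 CPM on Geltrex™. *Rac1*, which drives protrusion, ranged from 342 to 420.3 CPM on control plates, from 369 to 375 CPM on Collagen I, from 412 to 483 CPM on fibronectin and from 406 to 419.6 CPM on Geltrex™. For both genes fibronectin overlapped with control and not with Collagen I. *Rac1* was higher on fibronectin than on Collagen I by 0.25 ± 0.08 (adjusted p = 0.0237), which ended without Collagen I replicate 1 or fibronectin replicate 2 (adjusted p of at most 0.108). *Rhoa* was higher there by 0.20 ± 0.08 (adjusted p = 0.0451), which ended under 13 of 18 alternatives, among them the fits without control replicate 2, Collagen I replicate 1 or 2 or any 1 sample of fibronectin or Geltrex™ (adjusted p of at most 0.126).

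*Cdc42*, which sets polarity and filopodia, ranged from 464 to 560.0 CPM over the 12 samples. The kinase genes *Rock1* and *Rock2* ranged from 163 to 271 CPM and from 495 to 961 CPM, with a wide spread within groups that reached 658 to 961 CPM for *Rock2* on fibronectin. None of these 3 genes passed in any comparison.

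Levels of different genes were compared per kilobase of exon, as means over the 12 samples. The length was that of all exons, 9400 bases for *Flna* and 2966 for *Cdc42*, against 8456 and 2108 for their longest transcripts. The ranks depend on this choice, and by the longest transcripts *Cdc42* would stand above *Flna* on every surface. *Cdc42* was the highest at 179 CPM per kilobase, followed by *Flna* at 149, *Flnc* at 99.7, *Rac1* at 89.2 and *Zyx* at 85.1. The place of *Rac1* is uncertain, since 51.4% of its exon length is shared with *Daglb*. If reads in that stretch were not counted, its value is too low. By the length of all exons, the order of the first 3 depended on the surface. *Flna* was at 203 ± 6.24 CPM per kilobase (SD, n = 3) on fibronectin and 201 ± 1.78 on Geltrex™, above *Cdc42* at 186 ± 3.48 and 186 ± 3.67. *Flnc* had the higher mean of the filamin pair on control plates, at 121 ± 21.7 against 99.2 ± 9.12 for *Flna*, and on Collagen I, at 106 ± 6.83 against 93.6 ± 7.71. The ranges of the pair overlapped on both surfaces, while within each of these samples the *Flna* share was at most 48.9%. At the other end, ahead of *Ilk*, stood *Lims2* at 2.71 CPM per kilobase and *Git2* and *Arhgef7* at 3.92 each. *Cdc42*, the most abundant, passed in no comparison, and *Lims2*, among the scarcest, had one of the largest log2 fold changes.

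Other genes of the same pathway were counted from 4 lists, which were chosen with earlier results of these data known. Of 35 tested genes of other adhesion adaptors, 15 rose and 4 fell on fibronectin relative to control, beside 17.1% and 14.7% of all genes, and 13 rose and 6 fell on Geltrex™, beside 16.4% and 16.6%. Among the genes with large log2 fold changes were *Lpp* (0.86), the gene of a zyxin relative, on fibronectin, and *Nedd9* (1.08), a p130Cas relative, on Geltrex™. *Nedd9* and *Bcar1* thus both rose on Geltrex™, and *Nedd9* was higher on Geltrex™ than on fibronectin by 0.83. The adaptor *Kank1* was lowest on fibronectin, with a log2 fold change of -1.18.

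Of 30 actomyosin effectors, against the same shares of all genes, 16 rose and 3 fell on fibronectin and 13 rose and 3 fell on Geltrex™, led on both surfaces by the formin gene *Diaph3* (0.99 and 0.96). Of 14 integrin genes, 2 rose and 4 fell on fibronectin, beside 17.1% and 14.7% of all genes, and the 5 that passed on Geltrex™ all fell, beside 16.6%. *Itgb3*, the beta subunit of a fibronectin and vitronectin receptor, rose by 0.77 on fibronectin, and *Itga8* fell by 2.35 on Geltrex™ on the log2 scale. With the median of all genes between -0.02 and -0.01, the medians of these lists on fibronectin and Geltrex™ were 0.15 and 0.17 for adaptors, 0.27 and 0.23 for actomyosin effectors, and -0.05 and -0.15 for integrins.

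Known targets of SRF and YAP, factors that respond to actin state, form the last of these lists and were mostly higher on Geltrex™. This list too was chosen with earlier results of these data known, so its counts are a description and no independent evidence. Activity of SRF or YAP was not tested. Of 14 tested targets 13 rose on Geltrex™ relative to control, beside 16.4% of all genes, where *Ccn1* and *Ccn2*, matricellular genes widely used as YAP readouts, rose by 2.84 and 2.50 on the log2 scale. On fibronectin 5 rose and 2 fell, beside 17.1% and 14.7%. The 8 that passed between Geltrex™ and fibronectin were all higher on Geltrex™, beside 9.06% of all genes. Of the 39 focal adhesion genes, 6 were higher and 3 lower on Geltrex™ than on fibronectin, beside 9.06% and 10.3% of all genes. Those 6 were *Lims2*, *Bcar1*, *Flnc*, *Zyx*, *Tgfb1i1* and *Git2*, and those 3 were *Pdlim5*, *Yes1* and *Actn1*. With the Geltrex™ samples summed into 1, *Bcar1* alone was higher and 0 were lower.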

How the data were processed

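RNA-seq was performed on 12 samples of C2C12GFP cells, 3 on each of 4 plate surfaces. The authors used Trimmomatic for trimming, HISAT2 for alignment and featureCounts for counting. They deposited a table of read counts, whole and unscaled, with a column for each sample. Genome build, annotation and strand setting are not given in the sources used here. Names, lengths and overlaps came from GENCODE M21 (GRCm38), which held all 55536 identifiers.

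Tests used edgeR 4.0.16 (R 4.3.3). The filter filterByExpr, at a minimum count of 10 and total of 15, left 14499 genes, and TMM gave the scaling. All 12 samples entered 1 quasi-likelihood fit (8 residual degrees of freedom), from which 6 contrasts were drawn, with Benjamini-Hochberg adjustment over all genes tested and a call at an adjusted p of at most 0.05. The SE is the size of the log2 fold change divided by the root of the F statistic. On simulated counts for fibronectin against control over 14499 genes, 77% of 100 genes changed by 1.5-fold and 87% of 100 genes changed by 2-fold were recovered, with 9 false among 173 calls. Only these genes were changed there, and only on fibronectin. In the data 31.9% of all genes passed between fibronectin and control, so the simulated rates need not hold for the data. The alternatives were DESeq2 1.42.0, RLE scaling, 2 other filters, only the groups compared, the replicate number as a block, Geltrex™ summed into 1 sample, and leaving out each sample. All 39 genes are named. Each called gene carries full statistics for at least 1 comparison, but not for every comparison in which it was called. From other lists only called genes with the largest or smallest fold changes are named. The members and lists were chosen with earlier results of these data known. Protein sequences were not used here. A few genes of the other lists are not reported here.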

Additional observations from a re-analysis of the deposited data

How the results depend on the processing

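Of the 71 calls of focal adhesion genes in 6 comparisons, 33 held under every alternative run and 38 were lost under at least 1, 27 of them when 1 sample was left out and 11 only under another fit, and 0 reversed. Between Collagen I and control DESeq2 called 1 higher and 1 lower gene, and with no filter on low counts 1 was higher and 2 lower, against 0 and 0. Only the groups compared gave 3 lower genes on fibronectin than on control and 1 lower on Geltrex™ than on Collagen I. With no filter on low counts 1 was lower on Geltrex™ than on control. Geltrex™ summed into 1 sample gave 5 higher and 0 lower than control, 6 higher than Collagen I, and 1 higher and 0 lower than fibronectin, and a lone sample is there assumed to vary like the other groups. Leaving out each sample in turn gave 0 to 1 higher and 0 lower genes for Collagen I over control, 6 to 12 higher and 2 to 5 lower for fibronectin over control, 8 to 10 and 0 to 2 for Geltrex™ over control, 12 to 18 and 3 to 6 for fibronectin over Collagen I, 10 to 15 and 0 for Geltrex™ over Collagen I, 4 to 6 and 2 to 3 for Geltrex™ over fibronectin, and 17 to 24 that differed among the 4 groups. The cause of these shifts was not tested. Same-numbered samples did not deviate together in all groups (correlations of -0.154 to 0.225), so the numbers were not taken as pairs. With the replicate block, 0 genes passed in either direction between Collagen I and control. The block ended the calls of *Actn4* and *Rhoa* for fibronectin over Collagen I and of *Actn1* and *Git2* for Geltrex™ over fibronectin, and it added *Crk* for fibronectin over control and *Vcl* for Geltrex™ over Collagen I. Counts of *Ilk* are too few to show a change. With the length of the longest transcript, the mean paralog share moved by at least its SD over the 3 samples in 114 of 124 cases.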
